A study of Mus musculus with 24 samples.

Results

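The RNA of 7 genes was followed across all libraries of a study of C2C12 muscle cells: Cdsn, Avil, P2rx3, Cyb5r1 and Ascc2, whose RNA was abundant under oligomycin and less so when doxycycline was also given, Sprr1a, whose RNA was low under oligomycin, and P2rx5, a relative of P2rx3. They are 7 of the 56748 genes in the deposited table, found by gene name. All 7 are among the 12904 genes tested, which had at least 1 FPKM in at least 4 libraries. FPKM is the number of sequenced fragments scaled by gene length and by a size set for each library. Levels of different genes can thus be set side by side per length. The genes were chosen from these same values, with no numeric cutoff. Levels in the oligomycin groups and their comparison with the oleic acid groups are therefore described without a test. Avil and P2rx3 passed the filter on low values only through the oligomycin groups, since in 0 of the 16 libraries without oligomycin did either reach 1 FPKM.

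RNA came from 24 libraries of C2C12, an immortalised mouse myoblast line, all carrying a lentiviral vector from which doxycycline induces uncoupling protein 1 (UCP1), a carrier of the inner mitochondrial membrane through which protons leak back without passing ATP synthase. Doxycycline or water was given 24 h before the treatments, which lasted 16 h. Dox_OOA received doxycycline, then 1 µM oligomycin, which blocks ATP synthase, with 300 µM oleic acid. Dox_OA received doxycycline, then 300 µM oleic acid, and Dox_BSA received doxycycline, then 51 µM bovine serum albumin (BSA). OOA, OA and BSA received the same 3 treatments with water in place of doxycycline. Each of the 6 groups held 4 libraries. No group was given doxycycline without the UCP1 vector, so their effects cannot be told apart, and no group was given oligomycin without oleic acid. How much BSA the oleic acid was given with is not stated. Nothing in the labels ties the 4 libraries to 4 cultures, and the p-values below measure the spread between libraries only, which may be technical.

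Libraries held 20370651 to 29410667 reads. Ucp1 measured 207 to 341 FPKM in the doxycycline libraries, against 3.88 to 7.67 FPKM in the water libraries. It was not even within the doxycycline arm, at 207 to 224 FPKM in Dox_OOA, 309 to 339 in Dox_OA and 332 to 341 in Dox_BSA. In water it was 3.88 to 5.38 FPKM in OOA, 6.32 to 7.67 in OA and 4.24 to 5.85 in BSA. Of 10 myoblast markers, 8 reached 1 FPKM in every group. The summed level of the 10 was 184 to 195 FPKM in OOA, against 216 to 229 FPKM in OA and 274 to 302 FPKM in BSA. With doxycycline the sums did not fall in this way. They were 245 to 264 FPKM in Dox_OOA and overlapped with those of Dox_OA, which began at 232 FPKM. Of the 8 tested markers, 2 rose and 4 fell in OOA against OA (limma adjusted p below 0.05), where 56.9% of all genes tested passed. In Dox_OOA against Dox_OA 4 rose and 2 fell, where 33.2% of all genes tested passed. Whether these shifts, or the unequal Ucp1 levels, have a part in the values below was not tested. In bulk RNA, fewer cells that express a gene and less RNA per cell cannot be told apart.

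As background, the genes are known from different tissues and roles. Cdsn encodes corneodesmosin, a glycoprotein of the junctions that hold cornified skin cells together, and Sprr1a encodes a precursor of the cornified envelope that is also known as a gene induced in injured sensory neurons. Avil encodes advillin, an actin-binding protein of the gelsolin and villin family known from peripheral sensory neurons, and P2rx3 encodes an ATP-gated cation channel of pain-sensing neurons. P2rx5 encodes another channel subunit of the P2X family, described in rat skeletal muscle during development. Cyb5r1 encodes a membrane-bound reductase of cytochrome b5, and Ascc2 a ubiquitin-binding subunit of the ASC-1 complex, which takes apart collided ribosomes.

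The promoters of Avil and Sprr1a are shown because they held matches to short motifs of stress-regulated transcription, in a gene that was high and a gene that was low under oligomycin. RefSeq promoters of build GRCm38.p6, covering 250 bases before and 50 after the annotated start, were found for 5 of the 7 genes in 6 windows, with none for P2rx3 and P2rx5. In the window of Avil (chr10:127000459-127000758, plus strand) the capitals mark TGATGNAA, the C/EBP-ATF response element bound by ATF4 heterodimers. In that of Sprr1a (chr3:92485832-92486131, minus strand) they mark TGANTCA, the AP-1 site, in a pair of copies, and TATAAA, the TATA box.
Avil promoter: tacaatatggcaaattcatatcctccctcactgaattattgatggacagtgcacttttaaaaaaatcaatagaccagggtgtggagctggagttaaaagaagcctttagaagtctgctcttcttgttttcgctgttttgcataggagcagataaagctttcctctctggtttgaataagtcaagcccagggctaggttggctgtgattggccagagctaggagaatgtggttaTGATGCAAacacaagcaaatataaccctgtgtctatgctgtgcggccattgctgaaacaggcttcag
Sprr1a promoter: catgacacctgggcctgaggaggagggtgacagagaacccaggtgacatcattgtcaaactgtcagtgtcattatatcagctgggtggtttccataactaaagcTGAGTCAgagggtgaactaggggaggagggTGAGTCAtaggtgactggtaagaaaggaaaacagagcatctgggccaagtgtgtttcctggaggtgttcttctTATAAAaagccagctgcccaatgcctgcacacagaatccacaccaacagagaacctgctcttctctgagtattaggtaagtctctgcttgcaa
The element in Avil reads TGATGCAA and begins at position -17 from the start, counted in the direction of the gene. Of 32851 RefSeq promoters of the same length, 3.97% hold TGATGNAA on either strand. The AP-1 sites of Sprr1a both read TGAGTCA, at -146 and -116, and its TATA box lies at -43. AP-1 sites are in 7.81% of the promoters and the TATA letters in 13.6%. CCAAT, the CCAAT box, was found in both windows, at -45 on the opposite strand in Avil and at -26 in Sprr1a, and is in 37.4% of all promoters. TGACGT, the core of the cAMP response element, is in 7.51% of promoters and was not found in the 6 windows. No motif overlapped another in the windows shown, and the windows of Cdsn, Cyb5r1 and Ascc2 held none of the 5 motifs. A match describes the letters and not a bound site.

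Cdsn (ENSMUSG00000039518, chromosome 17, 35863025 to 35868077, plus strand, GRCm39 as in the deposited table) had the highest log2(FPKM + 1) difference of OOA from OA among all genes tested. This is a description of how it was chosen, and it did not hold at a smaller pseudocount. With doxycycline it had 18.7, 20.1, 20.6 and 21.7 FPKM in Dox_OOA, against 3.22, 2.90, 2.73 and 2.17 FPKM in Dox_OA and 6.04, 5.74, 6.38 and 5.20 FPKM in Dox_BSA. In water it had 96.2, 92.2, 100.03 and 103.3 FPKM in OOA, against 1.78, 1.59, 1.43 and 2.04 FPKM in OA and 2.85, 1.87, 2.40 and 2.23 FPKM in BSA. Every OOA library lay above every Dox_OOA library, and every Dox_OOA library above all libraries without oligomycin. The mean in OOA was 97.9 ± 4.82 FPKM, against 1.71 ± 0.26 FPKM in OA (SD, n = 4 each), 57.3 times as much. Per length, this skin gene stood in OOA beside Cyb5r1, which averaged 99.0 ± 7.09 FPKM there (SD, n = 4).

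Avil (ENSMUSG00000025432, chromosome 10, 126836578 to 126856863, plus strand) and P2rx3 (ENSMUSG00000027071, chromosome 2, 84828927 to 84867806, minus strand), the genes known from sensory neurons, had few reads in water without oligomycin. Avil had 3.85, 2.99, 4.48 and 4.01 FPKM in Dox_OOA, against 0.257, 0.2, 0.183 and 0.379 FPKM in Dox_OA and 0.35, 0.398, 0.064 and 0.297 FPKM in Dox_BSA. In water it had 17.5, 18.4, 23.0 and 20.5 FPKM in OOA, against 0.05, 0.143, 0.047 and 0.049 FPKM in OA and 0.055, 0.102, 0.063 and 0.113 FPKM in BSA. The oligomycin groups of Avil overlapped with no other group, while Dox_BSA and Dox_OA overlapped with each other, as did BSA and OA. Behind the low values stood 25 reads in the 4 OA libraries (95% Poisson interval 16.2 to 36.9, counting error only), against 26 reads in the 4 BSA libraries (17.0 to 38.1).

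P2rx3 had 1.48, 1.35, 1.83 and 1.94 FPKM in Dox_OOA, against 0.136, 0.287, 0.032 and 0.045 FPKM in Dox_OA and 0.689, 0.588, 0.422 and 0.614 FPKM in Dox_BSA. In water it had 10.5, 12.6, 12.4 and 11.6 FPKM in OOA, against 0, 0.029, 0.159 and 0 FPKM in OA and 0, 0, 0 and 0.061 FPKM in BSA. The 5 libraries at 0 were all water libraries without oligomycin, whereas every doxycycline library held P2rx3 reads. The 4 OA libraries held 13 reads in all (95% Poisson interval 6.92 to 22.2), against 4 reads in the 4 BSA libraries (1.09 to 10.2). Mean FPKM in OOA was 251 times that in OA for P2rx3 and 274 times for Avil, ratios that rest on those few reads.

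P2rx5 (ENSMUSG00000005950, chromosome 11, 73051247 to 73063511, plus strand), the other P2X subunit gene, did not follow P2rx3. It had 2.73, 3.04, 2.31 and 3.03 FPKM in Dox_OOA, against 2.69, 3.04, 2.37 and 3.02 FPKM in Dox_OA and 2.25, 2.31, 2.001 and 2.18 FPKM in Dox_BSA. In water it had 1.03, 0.94, 0.897 and 0.924 FPKM in OOA, against 1.88, 2.19, 2.10 and 1.90 FPKM in OA and 2.20, 2.94, 3.04 and 2.61 FPKM in BSA. All 4 OOA libraries lay below every other library, and Dox_OOA overlapped with Dox_OA. Per length, P2rx3 averaged 11.8 ± 0.99 FPKM in OOA and P2rx5 0.949 ± 0.060 FPKM (SD, n = 4), whereas in OA they averaged 0.0469 ± 0.0757 and 2.02 ± 0.15 FPKM.

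Cyb5r1 (ENSMUSG00000026456, chromosome 1, 134333297 to 134339478, plus strand) differed from the preceding genes in being well expressed without oligomycin. It had 29.998, 29.9, 32.6 and 33.0 FPKM in Dox_OOA, against 9.98, 10.2, 10.5 and 9.36 FPKM in Dox_OA and 13.3, 15.005, 14.7 and 13.8 FPKM in Dox_BSA. In water it had 88.9, 99.6, 105.1 and 102.3 FPKM in OOA, against 11.1, 10.9, 10.3 and 11.1 FPKM in OA and 9.22, 10.0, 10.2 and 9.72 FPKM in BSA. The oligomycin groups stood apart from each other and from the rest, and Dox_BSA lay above the OA, Dox_OA and BSA libraries. Ascc2 (ENSMUSG00000020412, chromosome 11, 4587747 to 4635699, plus strand) was high in OOA alone, where it had 38.4, 38.9, 40.7 and 38.0 FPKM. Its levels were 15.2 to 16.4 FPKM in Dox_OOA, 13.03 to 14.2 FPKM in Dox_OA, 14.1 to 15.1 FPKM in Dox_BSA, 12.98 to 15.1 FPKM in OA and 13.03 to 14.5 FPKM in BSA. Dox_OOA of Ascc2 lay just above Dox_BSA, and the 4 groups without oligomycin overlapped along their order.

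Sprr1a (ENSMUSG00000050359, chromosome 3, 92391259 to 92393202, minus strand) had the lowest log2(FPKM + 1) difference of OOA from OA among all genes tested. It had 1.17, 2.80, 1.15 and 1.48 FPKM in Dox_OOA, against 10.4, 8.58, 9.63 and 9.94 FPKM in Dox_OA and 2.99, 2.44, 2.87 and 3.27 FPKM in Dox_BSA. In water it had 1.03, 1.57, 1.30 and 0.604 FPKM in OOA, against 10.8, 12.6, 11.2 and 12.9 FPKM in OA and 3.35, 5.61, 6.82 and 5.02 FPKM in BSA. The order of groups ran from OA through Dox_OA, BSA and Dox_BSA with no overlap between neighbours, to Dox_OOA and OOA. Dox_OOA overlapped with both Dox_BSA and OOA. The level under oligomycin with oleic acid was below that of BSA as well as that of oleic acid alone. Reads were few at the low end, with 81 in the 4 OOA libraries (95% Poisson interval 64.3 to 100.7), against 979 in the 4 OA libraries (919 to 1042).

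**Figure D1:**
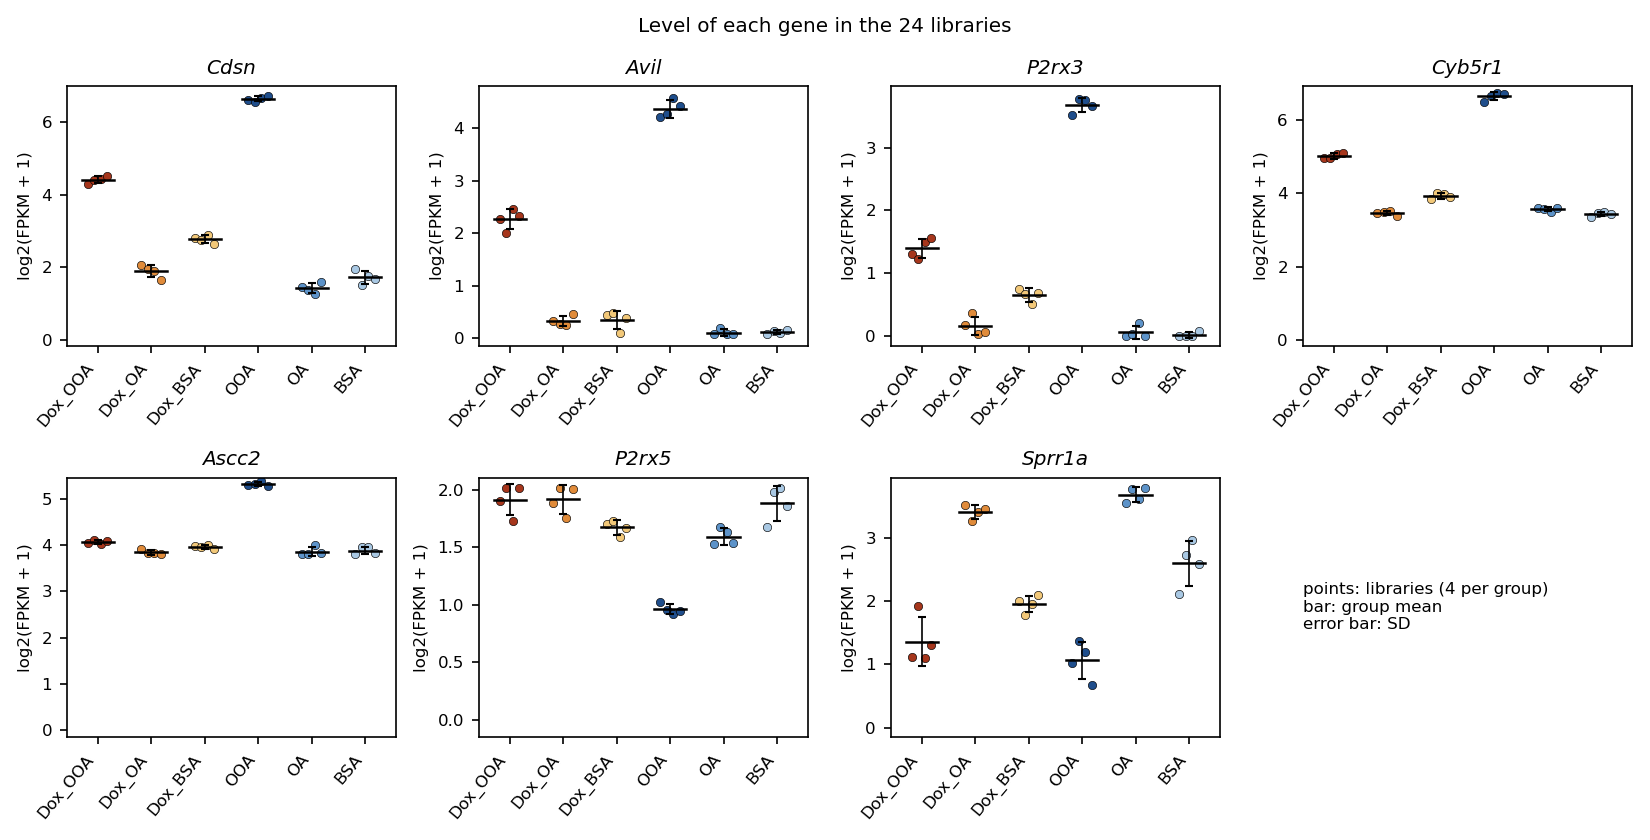
Log2(FPKM + 1) of each gene (vertical axis, a scale of its own per panel) in the 6 groups, with a point per library, a bar at the group mean and error bars of 1 SD (n = 4). Cdsn, Avil, P2rx3, Cyb5r1 and Ascc2 peak in OOA and stand lower in Dox_OOA, P2rx5 is lowest in OOA, and Sprr1a is highest in OA and Dox_OA and lowest in the oligomycin groups.

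On the log2(FPKM + 1) scale the difference of OOA from OA was 5.19 ± 0.09 (SE) for Cdsn, 4.27 ± 0.10 for Avil, 3.61 ± 0.10 for P2rx3, 3.07 ± 0.05 for Cyb5r1 and 1.46 ± 0.05 for Ascc2. It was -0.63 ± 0.08 for P2rx5 and -2.62 ± 0.17 for Sprr1a. By that value Cdsn ranked 1, Avil 6, P2rx3 9, Cyb5r1 19 and Ascc2 146 from the highest difference. Sprr1a ranked 1 and P2rx5 1028 from the lowest. The ranks describe the choice of the genes and carry no test. The added 1 understates changes of low genes, so with a pseudocount of 0.1 the differences were 6.88 for Avil and 6.45 for P2rx3. Both exceeded the 5.77 of Cdsn there, so the first rank of Cdsn depends on the added 1. The OOA and OA libraries did not overlap for any of the 7 genes, against 52.7% of all genes tested, and those of Dox_OOA and Dox_OA did not overlap for 6 of the 7, against 31.7% of all genes.

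The oligomycin excess was smaller in the doxycycline arm for each of the 5 high genes, as the choice of genes required. Cdsn exceeded its oleic acid level by 17.5 FPKM with doxycycline, against 96.2 FPKM in water, which is 18.2% of the water difference. P2rx3 exceeded it by 1.53 FPKM with doxycycline, against 11.7 FPKM in water. The share was 18.1% for Avil, 24.2% for Cyb5r1 and 9.35% for Ascc2, so the genes kept unequal parts of their excess. Sprr1a kept more, with a difference of -7.99 FPKM with doxycycline, against -10.7 FPKM in water (74.4%), and P2rx5 had nearly the same mean in Dox_OOA and Dox_OA. As ratios of mean FPKM, Dox_OOA stood at 7.36 times Dox_OA for Cdsn, 15.1 times for Avil, 13.2 times for P2rx3, 3.13 times for Cyb5r1 and 1.18 times for Ascc2. The corresponding ratios of OOA to OA were 57.3, 274, 251, 9.13 and 2.87. Set against OOA directly, Dox_OOA held 0.207 of the OOA mean for Cdsn, 0.193 for Avil, 0.140 for P2rx3, 0.317 for Cyb5r1 and 0.405 for Ascc2, with no overlap of libraries in any of them, against 40.3% of all genes without overlap.

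Across the 24 libraries, which share their conditions and so do not vary independently, the log2 levels of Cdsn, Avil, P2rx3 and Cyb5r1 had pairwise Pearson correlations of 0.98 to 0.99. Ascc2 was less close to Cdsn (0.90) than to P2rx3 (0.96). Sprr1a had -0.86 with Cdsn and -0.66 with Ascc2, and P2rx5 had -0.86 with Ascc2 and 0.45 with Sprr1a. These values describe the groups more than the spread within them.

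The comparison of Dox_BSA with BSA, which addresses doxycycline and UCP1 without oleic acid or oligomycin, shares no library with the comparisons of oligomycin with oleic acid that served in choosing the genes. Its values were nevertheless known by then, the rise of Cdsn among them, so its calls are not independent evidence. Cdsn averaged 5.84 ± 0.50 FPKM in Dox_BSA, against 2.34 ± 0.41 FPKM in BSA (SD, n = 4 each), a log2 change of 1.04 ± 0.09 (SE). Cyb5r1 averaged 14.2 ± 0.77 FPKM in Dox_BSA, against 9.77 ± 0.41 FPKM in BSA, a log2 change of 0.50 ± 0.05. P2rx3 had 55, 40, 27 and 39 reads in the Dox_BSA libraries, against 0, 0, 0 and 4 reads in the BSA libraries, a log2 change of 0.63 ± 0.10. Cdsn and Cyb5r1 rose in limma's test (adjusted p = 7.9e-08 and 1.58e-06, Benjamini-Hochberg over all genes tested). P2rx3 was called as well (limma adjusted p = 0.000474). It entered the test, as did Avil, only through the oligomycin groups that served in choosing it, so its call is not support. The libraries of these 3 genes did not overlap. Of all genes tested, 2.18% passed in either direction, 1.11% as higher, and 7.27% had libraries without overlap. The size for P2rx3 depended on the scale, with a log2 change of 2.57 at a pseudocount of 0.1 and 5.42 in limma-voom on reads recovered from the FPKM.

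The other 4 genes did not pass in Dox_BSA against BSA. Sprr1a averaged 2.89 ± 0.34 FPKM in Dox_BSA, against 5.20 ± 1.44 FPKM in BSA (SD, n = 4 each), and its libraries did not overlap (log2 change -0.64 ± 0.17, limma adjusted p = 0.0522). Avil had 34, 33, 5 and 23 reads in the Dox_BSA libraries, against 4, 8, 5 and 9 reads in the BSA libraries, so that the Dox_BSA library with 5 reads lay within the BSA range (log2 change 0.23 ± 0.10, adjusted p = 0.307, or 0.94 at a pseudocount of 0.1 and 1.49 in limma-voom, which did not pass either). The log2 change was -0.21 ± 0.08 for P2rx5 (adjusted p = 0.219) and 0.08 ± 0.05 for Ascc2 (adjusted p = 0.479). Fitted on the compared groups alone, P2rx3 lost its call (adjusted p = 0.147, range over all alternatives 5.68e-05 to 0.147) and the genes called fell to 80, against 281 in the fit of all groups. Leaving out BSA replicate 3, BSA replicate 4 or Dox_BSA replicate 2 gave 179, 177 and 173 genes, and leaving out BSA replicate 1 brought Sprr1a to a log2 change of -0.80 (adjusted p = 0.0103, range over all alternatives 0.0103 to 0.184).

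Oleic acid was set against BSA in each arm, and here the OA and Dox_OA libraries had served in choosing the genes, as the base of the oligomycin comparison. The values of the 7 genes are therefore a description with no test, and both comparisons share their Dox_BSA or BSA libraries with the preceding one. In the doxycycline arm Sprr1a averaged 9.64 ± 0.77 FPKM in Dox_OA, against 2.89 ± 0.34 FPKM in Dox_BSA (SD, n = 4 each), a log2 difference of 1.45 ± 0.17 (SE). Cdsn averaged 2.75 ± 0.44 FPKM in Dox_OA, against 5.84 ± 0.50 FPKM in Dox_BSA (log2 difference -0.87 ± 0.09). Cyb5r1 averaged 10.0 ± 0.48 FPKM in Dox_OA, against 14.2 ± 0.77 FPKM in Dox_BSA (log2 difference -0.47 ± 0.05). So the cornified envelope gene was higher with oleic acid, and the skin junction gene and the reductase gene were lower. P2rx3 had 35 reads in the 4 Dox_OA libraries, against 161 in the 4 Dox_BSA libraries, a log2 difference of -0.49 ± 0.10 that was -1.72 at a pseudocount of 0.1 and -2.56 in limma-voom. P2rx5 differed by 0.24 ± 0.08, Avil by -0.02 ± 0.10 and Ascc2 by -0.115 ± 0.047 on the log2 scale. The libraries of the groups did not overlap for 5 of the 7 genes, Avil and Ascc2 being the exceptions, against 11.4% of all genes tested, and 6.71% of all genes passed limma's test.

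In water Sprr1a averaged 11.9 ± 1.03 FPKM in OA, against 5.20 ± 1.44 FPKM in BSA (SD, n = 4 each), a log2 difference of 1.08 ± 0.17 (SE) that was already known when the gene was chosen. Cdsn differed by -0.30 ± 0.09 and P2rx5 by -0.29 ± 0.08 on the log2 scale, with overlapping libraries for Cdsn and none overlapping for P2rx5. The log2 differences of the other 4 genes were 0.14 ± 0.05 for Cyb5r1, 0.04 ± 0.10 for P2rx3, -0.02 ± 0.10 for Avil and -0.02 ± 0.05 for Ascc2. Sprr1a, P2rx5 and Cyb5r1 thus had libraries without overlap, 3 of the 7 genes, against 14.5% of all genes tested. Of all genes, 8.29% passed limma's test, 56.4% of them as higher, against 38.5% with values rescaled to a fixed FPKM sum per library and 45.5% with limma-voom.

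The oleic acid difference with doxycycline minus that in water is likewise given without a test, since it is built from the OA and Dox_OA libraries. It was -0.60 ± 0.07 for Cyb5r1, which was lower with oleic acid in the doxycycline arm and higher in the water arm. It was 0.53 ± 0.11 for P2rx5, with the opposite order in the arms, and -0.57 ± 0.13 for Cdsn, which was lower with oleic acid in both. For P2rx3 it was -0.53 ± 0.14, or -1.98 at a pseudocount of 0.1 and -3.24 in limma-voom. Sprr1a had 0.37 ± 0.24, Avil -0.01 ± 0.15 and Ascc2 -0.09 ± 0.07.

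**Figure D2:**
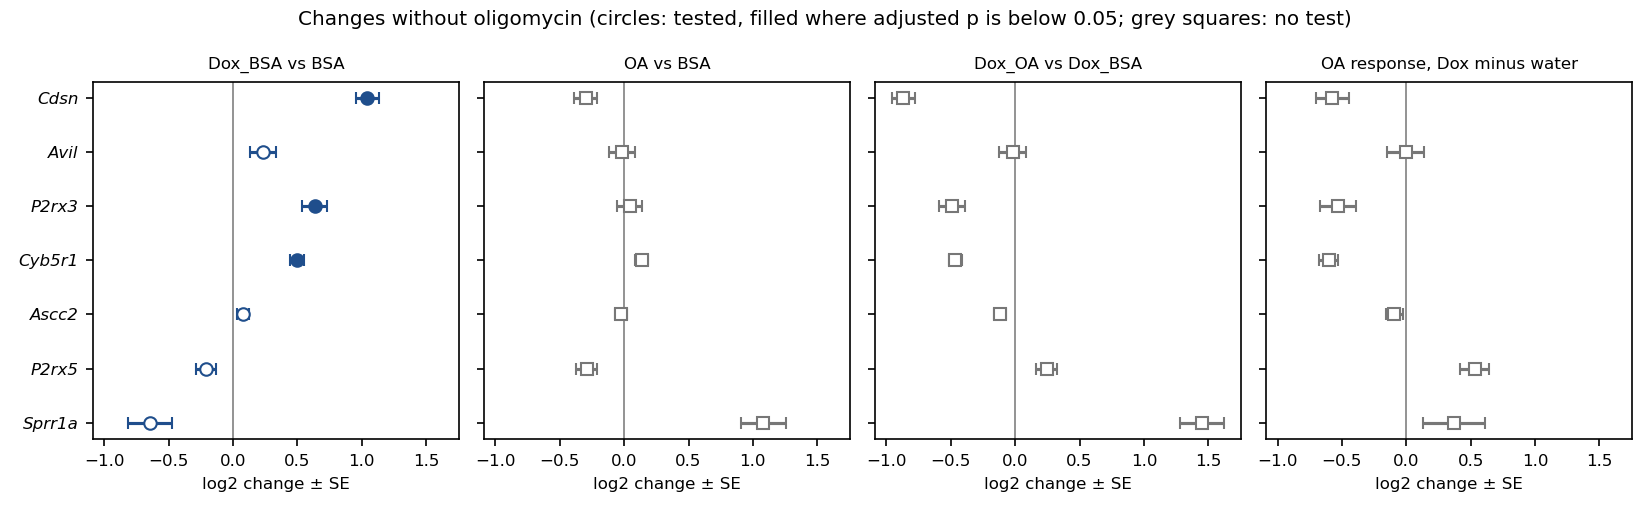
Log2 change with its SE (horizontal axis) of each gene in the 4 comparisons that hold no oligomycin library, with circles for the tested comparison, filled where limma's adjusted p is below 0.05, and grey squares where there is no test. Cdsn, P2rx3 and Cyb5r1 are filled to the right in Dox_BSA vs BSA, and Sprr1a lies farthest right in both oleic acid panels.

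Relatives of these genes were tested under oligomycin, where 56.9% of all genes tested passed in OOA against OA (28.5% as higher and 28.4% as lower) and 33.2% in Dox_OOA against Dox_OA. Of the 5 other P2X receptor genes 3 were tested. P2rx4, a subunit found in many tissues, rose by 0.37 ± 0.04 in Dox_OOA against Dox_OA and by 0.18 ± 0.04 in OOA against OA on the log2 scale (limma adjusted p = 3.39e-07 and 0.000778). P2rx6 rose by 0.38 ± 0.08 with doxycycline and fell by 0.25 ± 0.08 in water (adjusted p = 0.000564 and 0.00866). P2rx7 did not pass, at 0.16 ± 0.06 with doxycycline and 0.14 ± 0.06 in water (adjusted p = 0.0589 and 0.068). P2rx1 and P2rx2 were not tested and stayed at or below 0.0299 and 0.188 FPKM. In OOA the highest of the family per length was P2rx4, at a mean of 13.8 FPKM, next to 11.8 FPKM for P2rx3. Among the P2Y receptors, the G-protein-coupled receptors of nucleotides, 1 of 8 was tested, P2ry2, and it did not pass in OOA against OA (log2 change -0.115 ± 0.079, adjusted p = 0.225).

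Of 17 genes that release, break down, take up or sense extracellular ATP and adenosine, 7 were tested, of which 3 rose and 2 fell in OOA against OA. Nt5e, the ectonucleotidase that makes adenosine, rose by 0.37 ± 0.08 and Slc29a1, a nucleoside transporter, by 0.30 ± 0.05 on the log2 scale (limma adjusted p = 0.000209 and 8.38e-06). Ada, adenosine deaminase, fell by 0.60 ± 0.08 and Entpd5 by 0.19 ± 0.06 (adjusted p = 1.57e-06 and 0.00773). In Dox_OOA against Dox_OA Nt5e rose by 0.36 ± 0.08 and Adora2b, an adenosine receptor gene, by 0.59 ± 0.16, and Ada fell by 0.39 ± 0.08 (adjusted p = 0.000698, 0.00794 and 0.000725). The list's median log2 change was -0.10 in Dox_OOA against Dox_OA and 0.30 in OOA against OA, against 0.00 and 0.01 over all genes tested.

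Of the 7 relatives of Avil in the gelsolin and villin family 4 were tested, and 1 rose and 2 fell in OOA against OA. Svil, which encodes supervillin, rose by 0.33 ± 0.06, while Gsn, gelsolin itself, fell by 0.205 ± 0.039 and Flii by 0.22 ± 0.04 on the log2 scale (limma adjusted p = 5.02e-05, 0.000102 and 9.9e-06). Capg did not pass (-0.07 ± 0.06, adjusted p = 0.286). Vil1, Vill and Scin, the other genes of the family, were not tested and stayed at or below 0.433 FPKM. Gsn, at 119 FPKM in OOA and 137 FPKM in OA, remained more abundant per length than Avil.

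Among the reductases and carriers of cytochrome b5, 4 of the 6 relatives of Cyb5r1 were tested, and 3 fell in OOA against OA. Cyb5r3, the main reductase of most tissues, fell by 0.26 ± 0.04, and the cytochromes Cyb5a and Cyb5b by 0.58 ± 0.09 and 0.14 ± 0.04 on the log2 scale (limma adjusted p = 7.27e-06, 1.05e-05 and 0.00436). Cyb5r4 did not pass (-0.17 ± 0.09, adjusted p = 0.0947). Cyb5r1 and Cyb5r3 thus came close in OOA, at means of 99.0 and 120.0 FPKM, and lay far apart in OA, at 10.9 and 143.6 FPKM.

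Of the 5 other genes of the ASC-1 complex and of the rescue of collided ribosomes, all 5 were tested, and 3 rose in OOA against OA. Zfp598, which marks collided ribosomes with ubiquitin, rose by 0.85 ± 0.06 on the log2 scale, Ascc3, the helicase of the complex, by 0.26 ± 0.08, and Alkbh3, a demethylase that binds Ascc3, by 0.25 ± 0.08 (limma adjusted p = 4.2e-11, 0.0076 and 0.0067). The other 2 did not pass, Ascc1 with a log2 change of 0.20 ± 0.09. In Dox_OOA against Dox_OA 1 of the 5 rose, Zfp598 by 0.25 ± 0.06 (adjusted p = 0.00311), beside a log2 difference of 0.22 ± 0.05 for Ascc2 itself. The median log2 change of the 5 was 0.17 in Dox_OOA against Dox_OA and 0.25 in OOA against OA.

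Of 14 other small proline-rich protein genes 2 were tested, and Sprr2h fell in OOA against OA by 1.32 ± 0.19 and in Dox_OOA against Dox_OA by 0.70 ± 0.19 on the log2 scale (limma adjusted p = 3.03e-06 and 0.0066). Sprr2h also rose in Dox_OA against Dox_BSA by 0.81 ± 0.19 and in OA against BSA by 1.08 ± 0.19 (adjusted p = 0.00846 and 0.000552). Genes of the Sprr2 group are near copies of each other, so the reads of Sprr2h may be split among them and its values are uncertain. Sprr2k did not pass (OOA against OA -0.185 ± 0.309, adjusted p = 0.634). Of 17 further genes of the cornified envelope and of corneodesmosomes, 2 were tested, and both fell in OOA against OA, Ppl, periplakin, by 0.81 ± 0.10 and Tgm5, a transglutaminase, by 0.30 ± 0.11 (adjusted p = 5.85e-07 and 0.0202). Neither passed in Dox_OOA against Dox_OA, at 0.09 ± 0.10 for Ppl and -0.13 ± 0.11 for Tgm5 (limma adjusted p = 0.541 and 0.382). Tgm5 was low, at a mean of 0.474 FPKM in OOA, against 0.809 FPKM in OA. Another 6 of these 17 genes were listed at 0 in all libraries.

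Markers of the tissues where these genes are best known were low. Of 12 keratinocyte markers, 4 reached 1 FPKM in OOA and 4 in OA, and their sum was 10.9 to 12.8 FPKM in OOA, against 7.50 to 8.62 FPKM in OA. Krt1 was listed at 0 in all libraries, while Krt5 and Trp63, known from basal keratinocytes, stayed at or below 0.0396 and 0.249 FPKM. The keratin genes Krt14 and Krt10 were detected in all groups, at group means of 1.34 to 3.46 and 2.33 to 2.71 FPKM. Of the 4 tested keratinocyte markers only Pkp1, the desmosomal plakophilin, passed in OOA against OA, with a log2 change of 1.14 ± 0.08 (limma adjusted p = 1.05e-11), and it had 6.996 FPKM in OOA and 2.64 FPKM in OA. Of 17 sensory neuron markers, 1 reached 1 FPKM in OOA and 1 in OA, and the sum was 3.29 to 5.53 FPKM in OOA, against 10.1 to 12.3 FPKM in OA. Scn11a, Tac1 and Elavl4 were listed at 0 in all libraries, and the nociceptor genes Scn10a and Trpv1 stayed at or below 0.214 and 0.0926 FPKM. The neuronal tubulin Tubb3 fell by 1.18 ± 0.14 on the log2 scale and Gfra2 by 0.32 ± 0.12 (adjusted p = 1.91e-07 and 0.0243).

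Sprr1a is part of the response of neurons to axon injury, and of 14 other genes of that response 9 were tested. In OOA against OA 5 rose and 4 fell, with a median log2 change of 0.44, against 0.01 over all genes tested. The transcription factor gene Atf3 rose by 4.03 ± 0.13, Gadd45a by 2.48 ± 0.10 and Smad1 by 0.53 ± 0.05 on the log2 scale, whereas Jun fell by 1.14 ± 0.11 (limma adjusted p = 1.74e-17, 3.78e-15, 2.24e-09 and 7.12e-09). In Dox_OOA against Dox_OA 3 rose and 2 fell. Atf3 also rose in Dox_BSA against BSA, by 0.88 ± 0.13, and fell in Dox_OA against Dox_BSA, by 0.66 ± 0.13 (adjusted p = 0.000239 and 0.00158). It is counted again in the list of the integrated stress response below.

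The FOS and JUN genes, which encode AP-1 factors whose sites stand in the promoter of Sprr1a, were listed together with Batf, Maff and Mafk. Of 10 genes 8 were tested, and 1 rose and 3 fell in OOA against OA. Jun, named above, fell by 1.14 ± 0.11, Fosl1 by 0.79 ± 0.10 and Fosl2 by 0.33 ± 0.04, while Mafk rose by 0.62 ± 0.06 on the log2 scale (limma adjusted p = 7.12e-09, 2.72e-07, 3.14e-08 and 1.91e-09). Fosl1 averaged 7.04 FPKM in Dox_OA, against 3.92 FPKM in Dox_BSA, and 8.60 FPKM in OA, against 5.67 FPKM in BSA, rising by 0.71 ± 0.10 and 0.53 ± 0.10 (adjusted p = 2.08e-05 and 0.000775). It fell by 0.435 ± 0.097 in Dox_BSA against BSA (adjusted p = 0.0154). The RNA levels of Fosl1 and Sprr1a are given side by side, and a link between them was not tested.

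Genes of the integrated stress response, in which ATF4 and its partners bind C/EBP-ATF response elements, were higher under oligomycin as a list. A link between this list and the element in the Avil promoter was not tested. The windows of Cdsn, Cyb5r1 and Ascc2 held no such element. All 20 genes of the list were tested and 20 of 20 rose in OOA against OA, with a median log2 change of 2.18, against 0.01 over all genes tested. In Dox_OOA against Dox_OA 19 of 20 rose, where 16.2% of all genes tested did, with a median of 1.31, and 20 of 20 were lower in Dox_OOA than in OOA, where 45.7% of all genes tested passed and 23.7% as lower. In the comparison of Dox_BSA with BSA 11 of 20 rose, where 1.11% of all genes tested did. Among them Trib3 rose by 1.57 ± 0.105, Chac1 by 1.06 ± 0.10, Aldh1l2 by 0.69 ± 0.05 and Sesn2 by 0.58 ± 0.07 on the log2 scale (limma adjusted p = 1.25e-09, 4.01e-07, 7.97e-09 and 7.75e-06). In Dox_OA against Dox_BSA 16 of 20 fell, with a median of -0.59, where 6.71% of all genes tested passed in either direction. In OA against BSA 8 of 20 rose, with a median of 0.16, where 8.29% of all genes tested passed in either direction. The list was chosen with earlier results of these libraries known, so its direction is not independent evidence.

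The positions of the genes give a check on reads from neighbours, since the strand setting of the authors' counting is not given. Avil overlaps Tsfm, a mitochondrial translation factor gene on the opposite strand, over 9423 bases, and lies 733 bases from Ctdsp2 on its own strand. P2rx3 overlaps Ssrp1 on the opposite strand over 229 bases. Reads from overlapping stretches cannot be assigned to either gene without strand. In OOA against OA the log2 change was -0.04 ± 0.10 for Tsfm and -0.11 ± 0.03 for Ctdsp2 (limma adjusted p = 0.714 and 0.00719), and Ssrp1 fell by 0.18 ± 0.05 (adjusted p = 0.00391). The genes next to Cdsn, Psors1c2 and Gm9613, were not tested, with Psors1c2 at means of 0.172 FPKM or less and Gm9613 listed at 0. Within 100 kb of the 7 genes lay 33 other tested genes, whose log2 changes ranged from -1.66 for Tcf19, near Cdsn, to 0.56 for Mtmr3, near Ascc2.

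**Figure D3:**
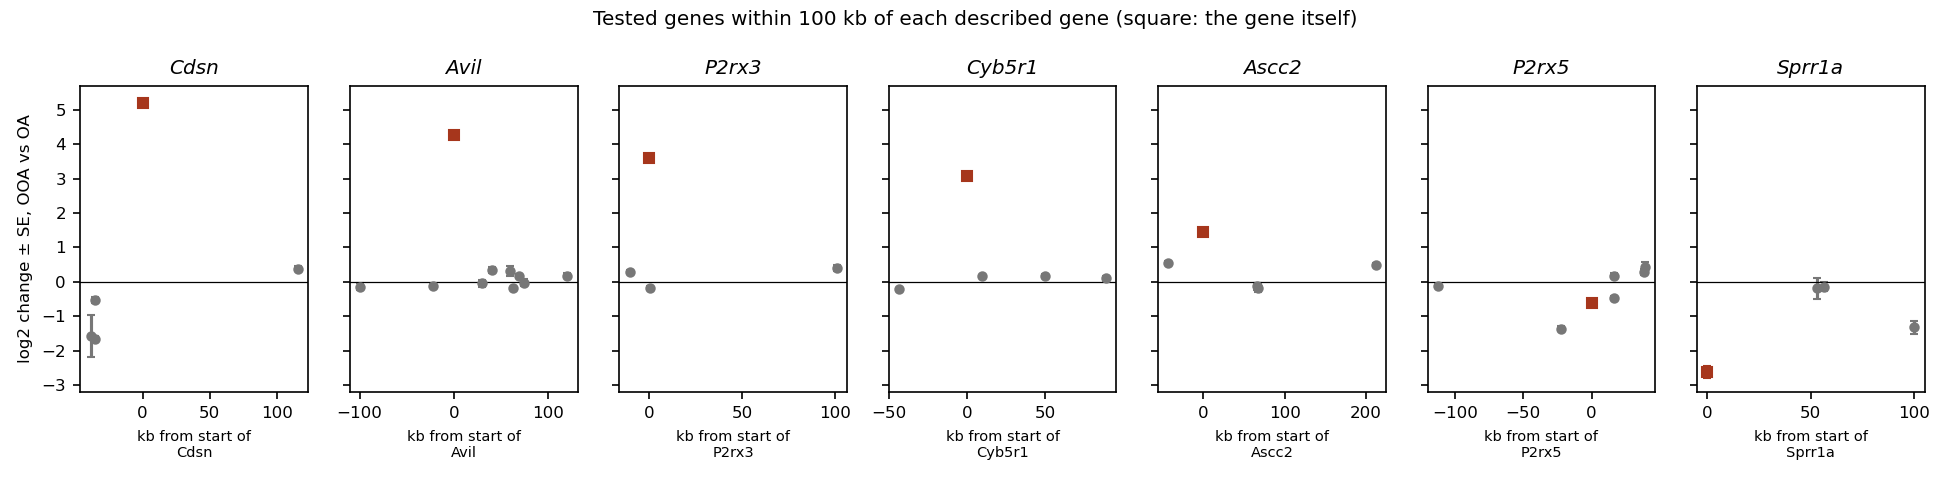
Log2 change with its SE in OOA vs OA (vertical axis) of every tested gene with any part within 100 kb of a described gene, against the distance between the starts of the 2 genes in kb (horizontal axis, positive in the direction of transcription). The squares are the described genes, and the circles, their neighbours, run from -1.66 (Tcf19) to 0.56 (Mtmr3).

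By Pearson correlation of log2(FPKM + 1) over the 24 libraries, among 10697 protein-coding genes, the pattern of Cdsn was most like those of Car6 (0.994), Lpar4 (0.989) and Tmem47 (0.989). Avil was closest to Pdzd7, Tmem47 and Cyb5r1 (0.990 each), and P2rx3 to Atp2a3 (0.994), Trim35 (0.993) and Ank2 (0.991). Cyb5r1 was closest to Ddit3 (0.996), which had 30.5 FPKM in Dox_OOA, 9.13 in Dox_OA and 13.2 in Dox_BSA, and 100.1 FPKM in OOA, 9.66 in OA and 9.37 in BSA. Ascc2 was closest to Lhfpl2, H2-M10.1 and Wars (0.984 each). P2rx5 had weaker matches in Podnl1 (0.956), Dmpk (0.929) and Angptl2 (0.929). Sprr1a was closest to the glycolytic genes Ldha (0.957), Eno1b (0.954) and Eno1 (0.949), and Ldha averaged 240 FPKM in Dox_OOA, 397 in Dox_OA and 261 in Dox_BSA, and 214 FPKM in OOA, 453 in OA and 347 in BSA. The libraries share their conditions, so these correlations describe group means more than independent samples.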

How the data were processed

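RNA-seq of 24 C2C12 libraries (4 in each of 6 groups, assigned from the sample titles) was analysed from the deposited FPKM table, which the authors made, per the labels' protocols, from libraries of the NEBNext Ultra II RNA kit. Per the submitters' processing notes, STAR, HTSeq, HISAT2, DESeq2, edgeR and STAR-Fusion and the build GRCm39 (mm39) were used, with no role given. Gene lengths in the table turned 100% of the deposited FPKM values into whole reads (tolerance 0.01), which gave the depth of 20370651 to 29410667 reads per library. 0 per-sample columns lacked a sample. The members and lists were chosen with earlier results of these data known.

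Genes with at least 1 FPKM in at least 4 libraries (12904 of 56748) were fitted as log2(FPKM + 1) in limma 3.58.1 (R 4.3.3) with a mean per group over all 24 libraries (18 residual degrees of freedom), variance trend and robust estimation. P-values were two-sided, adjusted by Benjamini-Hochberg over all genes tested in a comparison, with a threshold of 0.05. For the 7 genes only Dox_BSA against BSA was tested. Comparisons that hold oligomycin libraries, or the OA and Dox_OA libraries that also served in choosing the genes, are given for them without a test, although the plan had listed the oleic acid comparisons as tests. Poisson intervals (95%) cover counting error only. From each list the text names at most 4 tested genes per comparison, chosen among those with the smallest p (plus any P2X receptor), and from neighbours the overlapping and adjacent genes. Likeness was taken over protein-coding genes that passed the filter. Where a symbol had several entries, the longest gene was kept. Promoter motifs were searched on both strands of RefSeq promoters (GRCm38.p6, not used for coordinates of the table). On data simulated with normal noise, as the fit assumes, it recovered the largest of the changes put in. The counting noise of genes with few reads was not simulated. Alternatives were a pseudocount of 0.1, no filter, a filter in 8 libraries, a fixed FPKM sum per library, the compared groups alone, the replicate number as a block, no trend or robust estimation, limma-voom on recovered reads, and leaving out each library. Python 3.11.15, numpy 2.4.6, pandas 2.3.3 and scipy 1.17.1 were used.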

Additional observations from a re-analysis of the deposited data

Results flagged for a closer look

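In 3 of the 42 sets of 4 libraries screened, 1 library stood apart from the other 3, where chance gives about 1 in 20. Avil had 0.143 FPKM in OA replicate 2, the highest of its group and a value of 12 reads, against 4 or 5 reads in the others. P2rx3 had 0.0611 FPKM in BSA replicate 4, which held 4 reads, while the other 3 BSA libraries held none. Ascc2 had 15.1 FPKM in OA replicate 3, the highest of that group. None of these libraries belongs to the oligomycin groups.

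For P2rx5 and Cyb5r1 all libraries moved one way with oleic acid in the doxycycline arm and the opposite way in the water arm. The oleic acid difference with doxycycline minus that in water was 0.53 for P2rx5 and -0.60 for Cyb5r1 on the log2(FPKM + 1) scale. This difference was not tested, since its libraries had served in choosing the genes.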

How the results depend on the processing

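In Dox_BSA against BSA, the comparison in which the 7 genes were tested, no called change turned its direction. With the compared groups fitted alone, 80 genes were called there (281 in the fit of all groups) and P2rx3 did not pass (0.63, adjusted p = 0.147), and 512 genes were called in Dox_OA against Dox_BSA (866 in the fit of all groups). With no filter on low values 935 genes were called in Dox_OA against OA (1458 with the filter). Leaving out 1 library at a time gave 173 to 302 genes in Dox_BSA against BSA and 963 to 1250 in Dox_OA against OA, with the lowest without OA replicate 2. Sprr1a had log2 changes of -0.80 to -0.52 in Dox_BSA against BSA, and passed without BSA replicate 1. The cause of these changes was not tested.

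The replicate numbers did not pair the libraries by the rule that every correlation exceed 0.1. Deviations from the group means had correlations of -0.04 to 0.17 (median 0.03) over 60 pairs with the same number and of -0.22 to 0.22 (median -0.01) over 180 pairs with different numbers. That 18 of 24 libraries were closest to their own number is a hint of pairing from the data and not from the design. Failing the rule does not exclude a weaker tie between libraries of the same number. With the replicate block Sprr1a passed in Dox_BSA against BSA (-0.64, adjusted p = 0.0489), where 380 genes were called, and no other call of the 7 genes changed. Over all settings but the left-out libraries, the replicate block included, 54 tested values of the 7 genes kept their direction and side of the threshold, 1 lost its call and 1 gained it. Of the untested values 63 moved by more than the spread between replicates and 385 did not. Another scaling moved the median of all genes by 0.0367 at most. Low reads limit Avil and P2rx3 outside the oligomycin groups, whose differences were larger at the smaller pseudocount in the oligomycin comparisons.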
